A study of Homo sapiens with 6 samples.

Results

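Imprinted genes were followed through the conversion of primed human embryonic stem (ES) cells to the naive state. The group consisted of 43 listed genes out of 48183 gene names in the table, taken by name, and all 43 had at least 1 count in some library. Counts of identifiers that shared a name were summed, because 8 of the 43 genes had a second identifier on an alternative sequence that held 2.29% to 58.65% of their counts. Bulk RNA-seq was available for 6 libraries of a human ES cell line that the labels call H1, whereas the text of the study names H9. All lines carried the EOS-GFP reporter, a piggyBac transgene driven by the distal enhancer of Oct4. The 4 naive libraries were AICAR 1, AICAR 2, VPA and CA-p38. The AICAR libraries came from the EOS line, induced for 14 days with AICAR, an AMPK activator, kept on a lower dose for a further week and sampled 14 or 15 passages after day 14. VPA came from the EOS line induced with the histone deacetylase inhibitor VPA, at day 9 plus 12 passages. The medium for VPA induction lacked the Wnt and protein kinase C inhibitors of PXGL, the medium used for AICAR and CA-p38 induction. CA-p38 came from a CA-p38 EOS line that carries a Tet-ON constitutively active p38 switched on by doxycycline, at day 7 plus 12 passages. Which AICAR library had which passage is not given. Primed EOS and primed CA-p38 EOS, the parental lines, gave 1 library each. After induction, naive cells were kept in PXGL medium on mouse embryonic fibroblast feeders and were sorted for CD75 and SUSD2, whereas primed cells were grown without feeders in StemFit AK02N and were not sorted. The study also moved CA-p38-induced cells to PXGL without feeders, and whether the CA-p38 library came before or after that is not stated. State, medium, feeders, sorting and passage therefore cannot be told apart. Nothing states that the naive libraries were separate derivations, so p-values measure the spread between these libraries only.

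An imprinted gene is expressed mainly from the copy inherited from the mother or mainly from the copy inherited from the father. The choice is set by differentially methylated regions, some of them established in the egg or the sperm and then protected in the embryo by factors such as ZFP57, which binds the methylated hexamer TGCCGC. Imprinted genes lie in clusters, where a noncoding RNA from one copy is often found beside protein-coding growth regulators from the other, and loss of imprinted methylation during culture is a known concern with naive human stem cells. The counts used here do not separate the parental copies, so each level is the sum over both. In bulk samples, fewer cells of a type and less RNA per cell cannot be told apart either.

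RefSeq start sites (GRCh38.p14) were found for 29 of the 43 genes and comprised 62 different starts. Of these starts, 27.4% held TGCCGC on either strand in the 250 bases before the start. The share was 12.7% of the 34943 starts of all genes, for which that exclusion was not made. Starts that lie close together can hold the same match, as those of MEG3 did, so they are not independent. The windows of the imprinted genes held a median of 14.5 CpG dinucleotides against 11 for all genes. The windows shown are those of the maternal noncoding RNAs MEG3 and H19, of NAP1L5 and of the start shared by SNURF and SNRPN, because these genes stand for genes that rose, fell or were not called in the comparison that follows. Capitals mark the hexamer on either strand, and bases annotated as an untranslated region are left out.
MEG3, chr14:100825858-100826107, plus strand: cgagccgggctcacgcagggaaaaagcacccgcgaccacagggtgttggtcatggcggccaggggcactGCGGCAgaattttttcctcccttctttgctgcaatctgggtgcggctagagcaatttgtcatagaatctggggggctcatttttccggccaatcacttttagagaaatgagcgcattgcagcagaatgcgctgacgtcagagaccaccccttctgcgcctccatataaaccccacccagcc
H19, chr11:2001267-2001516, minus strand: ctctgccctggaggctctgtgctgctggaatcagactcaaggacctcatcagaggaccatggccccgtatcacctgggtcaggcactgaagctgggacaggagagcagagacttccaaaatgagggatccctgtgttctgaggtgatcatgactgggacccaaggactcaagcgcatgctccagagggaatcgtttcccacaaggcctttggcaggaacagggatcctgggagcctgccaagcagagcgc
SNURF and SNRPN, chr15:24954737-24954934, plus strand: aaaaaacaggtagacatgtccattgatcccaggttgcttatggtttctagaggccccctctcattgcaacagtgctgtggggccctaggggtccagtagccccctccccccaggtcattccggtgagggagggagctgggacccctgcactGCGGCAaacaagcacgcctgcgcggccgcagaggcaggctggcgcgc
NAP1L5, chr4:88697830-88698079, minus strand: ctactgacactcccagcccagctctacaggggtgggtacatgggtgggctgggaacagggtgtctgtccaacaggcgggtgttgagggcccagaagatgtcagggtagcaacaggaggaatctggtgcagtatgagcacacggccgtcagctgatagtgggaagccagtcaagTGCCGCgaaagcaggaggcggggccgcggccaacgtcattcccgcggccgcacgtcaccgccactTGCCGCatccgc
The MEG3 window held 1 match and 13 CpG, the NAP1L5 window 2 matches and 16 CpG, and the 198 bases shown for SNURF and SNRPN held 1 match and 8 CpG. The H19 window held no match and 4 CpG. It lies inside the annotated gene body of H19 (chr11:1995166-2004552), which extends further upstream. A match is a description of the letters only.

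Total counts ran from 46823699 to 54277064 per library, and the imprinted genes took 0.2292% to 0.2636% of them, with the naive and primed ranges overlapping. Levels are given as TMM-scaled CPM, each gene's count relative to the library total, and 3 counts, the limit that a count of 0 allows, corresponded to 0.0552 to 0.0613 CPM. The naive label was checked with 8 naive markers, whose summed level was 3060 to 3550 CPM in naive and 8.97 to 11.4 CPM in primed libraries. The 8 primed markers summed to 41.7 to 54 CPM in naive and 3160 to 3760 CPM in primed libraries. All 16 markers passed the test in the direction of their label. SUSD2, a naive marker at 427 to 668 CPM in naive libraries, was also an antigen used for sorting, so its direction is no independent check. The lists were also chosen with earlier results of these data known.

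Of the 43 genes, 41 had enough counts to be tested, and DDC and HYMAI did not. In naive compared with primed cells, 16 imprinted genes rose, 18 fell and 7 did not pass the threshold (edgeR, adjusted p under 0.05 over all 26497 genes tested). The share called was 82.9%, beside 53.1% of all genes (26% of all genes were higher and 27% lower). At least 4-fold changes that passed the test were found in 16 of the 41 genes, 13 upward and 3 downward, which is 39.0% beside 18.2% of all genes. Naive and primed libraries did not overlap for 36 of the 41 genes, or 87.8%, beside 64.9% of all genes. The median log2 fold change (log2FC, naive over primed) was -0.35 and its median size 1.79, compared with 0.11 and 0.85 over all genes. The 2 genes that had no primed count have log2 lower bounds of 8.7 (PEG3) and 3.67 (ZIM2). Both bounds lie above the medians of the imprinted genes, so placing the 2 genes there cannot change these medians.

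**Figure D1:**
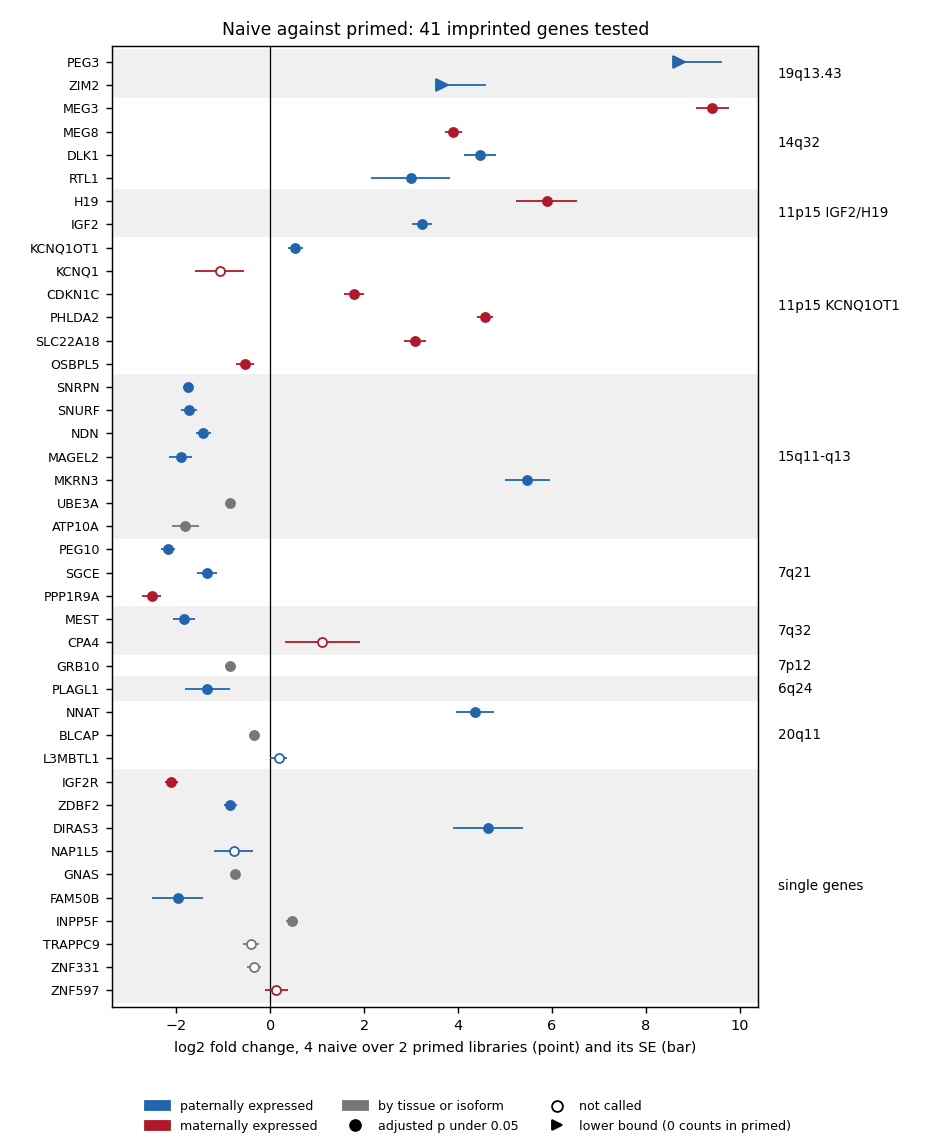
Log2 fold change (points, x axis) and standard error (bars) of the 41 tested imprinted genes, 4 naive over 2 primed libraries. Genes are grouped by locus and coloured by the copy from which each was listed by hand as expressed. Filled points passed an adjusted p of 0.05 (edgeR), and triangles are lower bounds for genes with no primed count. The genes of 19q13.43, 14q32 and the IGF2/H19 domain lie to the right of 0, whereas those of 7q21 and all of 15q11-q13 except MKRN3 lie to the left.

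The direction differed by locus rather than being shared by all imprinted genes. All 8 tested genes of 19q13.43, 14q32 and the IGF2/H19 domain were higher in naive cells, and all 3 genes of 7q21 were lower. At 15q11-q13, 6 of 7 genes fell. Among genes listed by hand as expressed from the paternal copy, 9 of 21 rose and 10 fell (median log2FC -0.78). Among genes of the maternal copy, 6 of 12 rose and 3 fell (median 1.45), and among genes imprinted by tissue or isoform, 1 of 8 rose and 5 fell (median -0.58). Genes listed by hand as having their promoter in a maternally methylated germline region did not share a direction, with 5 of 14 higher and 7 lower (median -1.06), compared with 11 higher and 11 lower of the other 27 (median -0.34). Tested genes imprinted by tissue or isoform were all placed among the other 27, including any with an isoform promoter in such a region.

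The summed level of the 22 paternally expressed genes was 471, 517, 493 and 511 CPM in AICAR 1, AICAR 2, CA-p38 and VPA, against 1170 and 1130 CPM in the EOS and CA-p38 EOS parents. The 12 maternally expressed genes gave 1270, 815, 1060 and 958 CPM in the same naive libraries, against 238 and 284 CPM in the primed ones. The paternal sum was thus lower, and the maternal sum higher, in each naive library than in either primed library. SNRPN contributed much of the paternal sum, and MEG3 much of the maternal sum in naive libraries only. In primed EOS and primed CA-p38 EOS most of the maternal sum was IGF2R, at 171 and 216 CPM, a gene that was lower in naive cells. IGF2R was placed among the maternal genes by hand, and whether it is imprinted in these cells was not measured. Without SNRPN the paternal sum was 296 to 334 CPM in naive and 517 to 542 CPM in primed libraries, and without MEG3 the maternal sum was 403 to 435 and 237 to 283 CPM. Per kilobase of annotated exon, PHLDA2 was the most abundant imprinted gene in naive cells (141 CPM per kb, followed by SNRPN at 53.4), whereas SNRPN was the most abundant in primed cells (181 CPM per kb, followed by GNAS at 34.9). PHLDA2 ranked 12 in primed cells, at 5.88 CPM per kb.

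**Figure D2:**
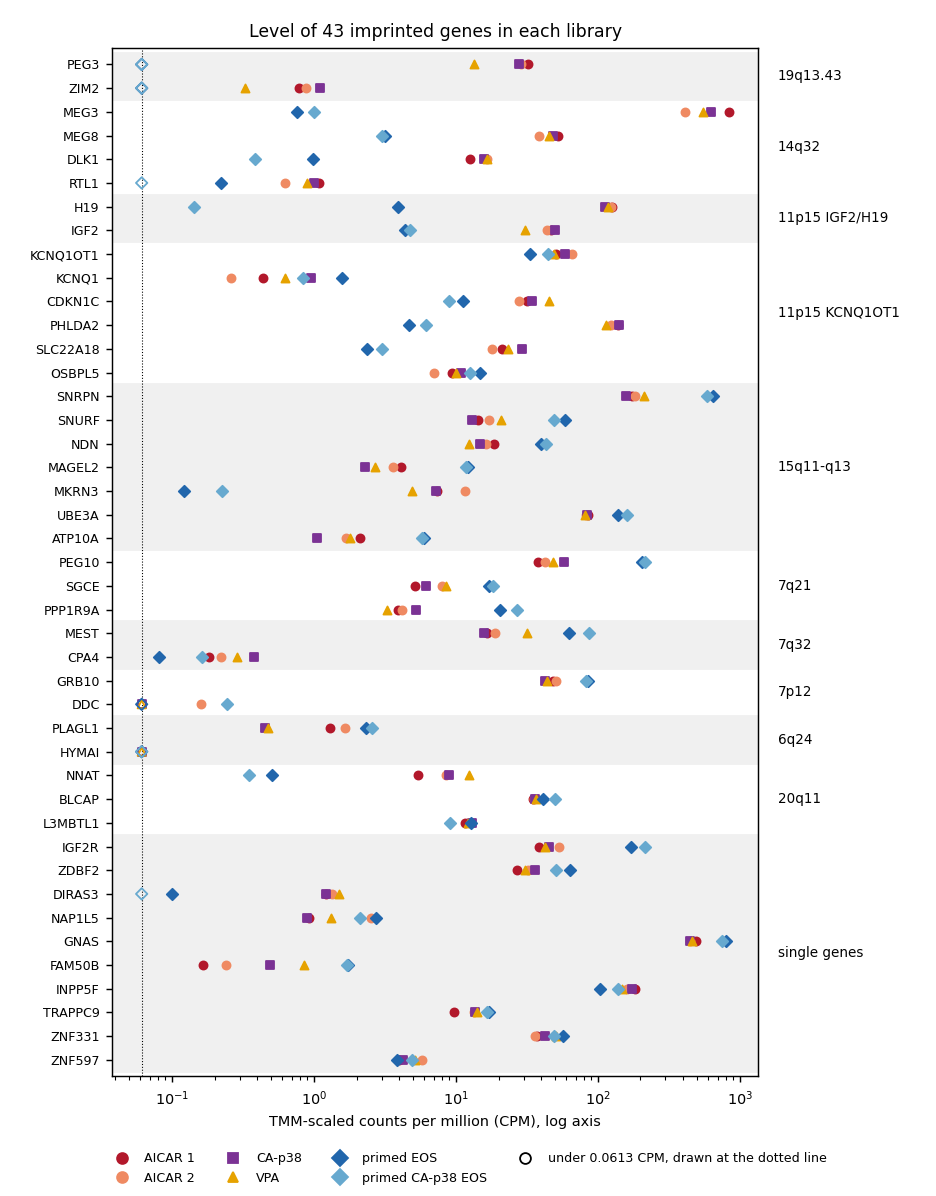
Level of each of the 43 imprinted genes (rows, grouped by locus) in the 6 libraries, in TMM-scaled CPM on a log axis; open symbols at the dotted line are values under 0.0613 CPM, about 3 counts. PEG3 and ZIM2 have no count in either primed library, and MEG3 lies at 412 to 838 CPM in naive libraries but at 0.767 and 1.0 CPM in primed ones.

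At 19q13.43, PEG3 and its overlapping neighbour ZIM2 had counts in naive libraries only. PEG3 (chr19:56810077-56840728, minus strand) encodes a zinc finger protein that is expressed from the paternal copy and acts in growth and maternal behaviour in mice. AICAR 1, AICAR 2 and CA-p38 held 32.5, 28.6 and 27.9 CPM (1765, 1419 and 1408 counts), VPA held 703 counts, and PEG3 had 0 counts in both primed libraries. The naive mean of 25.6 ± 8.35 CPM (SD, n = 4) was at least 417-fold higher than the level of 3 counts in a primed library, and the lowest naive library, VPA, was at least 219-fold higher (edgeR adjusted p = 6.54e-08). ZIM2, which shares the promoter and first exons of PEG3 on the same strand, stood at 0.791, 0.885, 1.11 and 0.325 CPM in AICAR 1, AICAR 2, CA-p38 and VPA, also with 0 primed counts. Its naive mean was at least 12.7-fold higher (edgeR adjusted p = 0.00019). For both genes VPA was the lowest of the naive libraries. Reads of the shared exons could be assigned to either gene, so the ZIM2 value is uncertain.

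At 14q32, genes of both parental copies rose together. MEG3 (chr14:100779410-100861031, plus strand), a noncoding RNA of the maternal copy with growth-restraining activity, stood at 838, 412, 630 and 549 CPM in AICAR 1, AICAR 2, CA-p38 and VPA. Its primed levels were 0.767 CPM (EOS) and 1.0 CPM (CA-p38 EOS). The difference was 686-fold, with a log2FC of 9.42 ± 0.35 (SE; edgeR adjusted p = 3.64e-10). The AICAR libraries were the highest and the lowest of the naive group, 2.03-fold apart, whereas primed libraries held only 38 and 49 MEG3 counts. MEG8, another maternal noncoding RNA of the cluster, was at 52.7, 38.8, 48.7 and 45.5 CPM in AICAR 1, AICAR 2, CA-p38 and VPA and at 3.19 and 3.04 CPM in the primed libraries (log2FC 3.90 ± 0.18, adjusted p = 2.14e-09, edgeR).

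DLK1 (chr14:100725705-100738224, plus strand) encodes a transmembrane ligand related to Delta and is expressed from the paternal copy. It lies 41.2 kb from the annotated gene body of MEG3, and the MEG3 start shown above lies further away, inside that body. DLK1 stood at 12.5, 16.6, 15.8 and 16.5 CPM in AICAR 1, AICAR 2, CA-p38 and VPA and at 0.990 and 0.388 CPM in the EOS and CA-p38 EOS parents. Its log2FC was 4.47 ± 0.34 (edgeR adjusted p = 2.08e-07), and 5.28 without primed EOS. RTL1, a retrotransposon-derived paternal gene needed by the placenta, was low throughout, at 0.624 to 1.09 CPM in naive libraries, 0.222 CPM in primed EOS and 0 counts in primed CA-p38 EOS. It rose with a log2FC of 2.99 ± 0.84 (edgeR adjusted p = 0.00903), which was 2.02 without primed CA-p38 EOS and 8.53 without primed EOS, where no primed count was left. RTL1 lies antisense to MEG8 over 8953 bases, and since it is not stated whether counting used the strand, reads of the overlap cannot be told apart.

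At 11p15, the IGF2/H19 domain was higher in all naive libraries for both of its genes. H19 (chr11:1995166-2004552, minus strand), a noncoding RNA of the maternal copy, stood at 126, 125, 113 and 118 CPM in AICAR 1, AICAR 2, CA-p38 and VPA. The primed libraries differed from each other, the EOS line being at 3.92 CPM and the CA-p38 EOS line at 0.143 CPM. The log2FC was 5.89 ± 0.65 (edgeR adjusted p = 6.21e-06), but 9.69 without primed EOS and 4.95 without primed CA-p38 EOS. IGF2 (chr11:2129112-2158391, minus strand), the growth factor of the paternal copy, stood at 46.9, 44.1, 50.4 and 30.5 CPM in AICAR 1, AICAR 2, CA-p38 and VPA against 4.40 and 4.76 CPM. IGF2 rose 9.38-fold (log2FC 3.23 ± 0.22, adjusted p = 6.6e-08, edgeR), and here the primed libraries were close to each other.

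Within the neighbouring KCNQ1OT1 domain, 4 of 6 genes rose and 1 fell. PHLDA2, a placental growth suppressor of the maternal copy, changed most, from 4.65 and 6.17 CPM in primed EOS and primed CA-p38 EOS to 139, 123, 142 and 115 CPM in the AICAR 1, AICAR 2, CA-p38 and VPA cultures (24-fold, log2FC 4.58 ± 0.17, adjusted p = 3.59e-10, edgeR). SLC22A18, a maternal transporter gene, rose from 2.38 and 3.04 CPM to 17.9 to 29.5 CPM (log2FC 3.08 ± 0.24). CDKN1C, which encodes the cell cycle inhibitor p57, rose from 11.3 and 8.89 CPM to 27.8 to 45.3 CPM, with VPA the highest (log2FC 1.79 ± 0.21, adjusted p = 9.6e-06, edgeR). None of these groups overlapped. KCNQ1OT1, the paternal noncoding RNA that silences the domain in cis, stood at 49.3 to 65.5 CPM in naive libraries against 33.4 and 44.3 CPM, a 1.45-fold rise (log2FC 0.53 ± 0.16, adjusted p = 0.0115, edgeR). Without primed EOS that value was 0.33 and the call was lost (edgeR adjusted p = 0.172).

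OSBPL5, a lipid-binding protein gene at the edge of the domain, was 1.46-fold higher in primed cells (log2FC -0.54 ± 0.20, adjusted p = 0.0359, edgeR). Its call was lost without AICAR 1, AICAR 2, primed EOS or primed CA-p38 EOS, with library totals and with the parental line as a block (edgeR adjusted p = 0.0543 to 0.216). KCNQ1, a potassium channel gene that overlaps KCNQ1OT1 on the opposite strand, was at 0.262 to 0.950 CPM in naive and 1.58 and 0.838 CPM in primed libraries and did not pass the threshold (log2FC -1.08 ± 0.52, adjusted p = 0.0973, edgeR). Without CA-p38 its log2FC was -1.45 and it was called (edgeR adjusted p = 0.0405). Of 8 trophoblast markers, measured because PHLDA2, CDKN1C, H19 and IGF2 are known placental genes, GATA2, KRT7 and HAND1 were also higher in naive cells. The list summed to 15.5 to 16.8 CPM in naive and 4.20 to 5.60 CPM in primed libraries, CGB5 had 0 counts in all naive libraries, and the part of trophoblast-like expression in these rises was not tested.

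At 15q11-q13, the Prader-Willi and Angelman region, 6 of 7 genes fell and MKRN3 rose. SNRPN (chr15:24823637-24978723, plus strand), which encodes a spliceosomal protein from the paternal copy, stood at 174, 183, 159 and 211 CPM in AICAR 1, AICAR 2, CA-p38 and VPA, compared with 650 and 586 CPM in primed EOS and primed CA-p38 EOS. It was 3.39-fold higher in primed cells (log2FC -1.76 ± 0.11, adjusted p = 3.36e-08, edgeR). SNURF, read from the same transcript unit, gave 13 to 20.9 CPM in naive and 58.8 and 49.4 CPM in primed libraries. Its ratio to SNRPN stayed between 0.0813 and 0.0992 in all 6 libraries. SNURF and SNRPN overlap on the same strand over 22864 bases. Reads of the overlap could be assigned to either gene, so their falls and their ratio are not independent of that assignment. The MAGE family genes NDN and MAGEL2, upstream on the same chromosome, moved likewise. NDN was at 12.4 to 18.5 CPM in naive and 39.9 and 43.4 CPM in primed libraries (log2FC -1.43 ± 0.16). MAGEL2 was at 2.31 to 4.14 CPM and 12.2 and 11.9 CPM (log2FC -1.91 ± 0.25).

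MKRN3 (chr15:23565674-23630075, plus strand), a ubiquitin ligase gene known from the control of puberty, is a paternal gene of the same region and went the other way. Its level was 7.32, 11.7, 7.26 and 4.95 CPM in AICAR 1, AICAR 2, CA-p38 and VPA, against 0.121 and 0.225 CPM in primed EOS and primed CA-p38 EOS. The rise was 45.1-fold (log2FC 5.48 ± 0.48, adjusted p = 7.12e-07, edgeR). UBE3A, the ubiquitin ligase gene of Angelman syndrome, which is imprinted in neurons, fell from 138 and 162 CPM to 81.2 to 85.0 CPM (log2FC -0.85 ± 0.10). ATP10A, a phospholipid flippase gene, fell from 6.00 and 5.74 CPM to 1.05 to 2.12 CPM (log2FC -1.81 ± 0.29).

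All 3 genes of 7q21 fell. PEG10 (chr7:94656325-94669695, plus strand), a retrotransposon-derived gene of the paternal copy required by the placenta, stood at 37.9, 42.4, 57.4 and 48.4 CPM in AICAR 1, AICAR 2, CA-p38 and VPA, against 204 and 216 CPM in primed EOS and primed CA-p38 EOS. It was 4.52-fold higher in primed cells (log2FC -2.18 ± 0.14, adjusted p = 4.19e-08, edgeR). SGCE, a sarcoglycan gene that starts next to PEG10 on the other strand, fell from 17.2 and 18.3 CPM to 5.15 to 8.57 CPM (log2FC -1.35 ± 0.21). PPP1R9A, a maternally expressed gene for a neuronal actin-binding protein 237.5 kb away, fell from 20.6 and 27.2 CPM to 3.28 to 5.22 CPM. Its 5.78-fold difference was the largest fall among the 41 genes (log2FC -2.53 ± 0.21, adjusted p = 3.83e-07, edgeR). The fall thus included genes of the paternal and of the maternal copy.

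At 7q32, MEST, a hydrolase-like gene of the paternal copy, stood at 16.5, 19, 15.7 and 32 CPM in AICAR 1, AICAR 2, CA-p38 and VPA against 62.5 and 86.5 CPM in the primed libraries (log2FC -1.84 ± 0.24, adjusted p = 2.84e-05, edgeR). VPA held the highest MEST level of the naive libraries and still lay below both primed ones. The carboxypeptidase gene CPA4 in the same region was at 0.0808 to 0.376 CPM in all libraries and did not pass the threshold (log2FC 1.11 ± 0.80). At 7p12, GRB10, an adaptor that restrains insulin signalling, fell from 85.7 and 82.7 CPM to 42.2 to 51.1 CPM (log2FC -0.86 ± 0.11). DDC next to it stayed at or under 0.245 CPM. At 6q24, PLAGL1, a zinc finger gene linked to transient neonatal diabetes, was at 1.31, 1.65, 0.455 and 0.477 CPM in AICAR 1, AICAR 2, CA-p38 and VPA and at 2.34 and 2.57 CPM in primed libraries (log2FC -1.34 ± 0.48, adjusted p = 0.0334, edgeR). The PLAGL1 call was lost without CA-p38, VPA, primed EOS or primed CA-p38 EOS and with library totals (edgeR adjusted p = 0.0537 to 0.136). HYMAI, a noncoding RNA within PLAGL1, had at most 1 count in any library.

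On chromosome 20, NNAT and BLCAP overlap on opposite strands and moved apart. NNAT (chr20:37521206-37523690, plus strand), a small membrane protein gene of the paternal copy, stood at 5.44, 8.47, 8.90 and 12.3 CPM in AICAR 1, AICAR 2, CA-p38 and VPA, against 0.505 and 0.347 CPM in primed EOS and primed CA-p38 EOS (20.6-fold, log2FC 4.36 ± 0.40, adjusted p = 1.2e-06, edgeR). BLCAP, the host gene in whose intron NNAT lies, was at 35.1 to 37.0 CPM in naive and 41.2 and 50.1 CPM in primed libraries (log2FC -0.34 ± 0.12, adjusted p = 0.0308, edgeR). The BLCAP call was lost without AICAR 1, AICAR 2 or primed CA-p38 EOS, with library totals and with the parental line as a block (edgeR adjusted p = 0.0524 to 0.359). L3MBTL1, a chromatin reader gene 5965.8 kb further along, was at 11.6 to 13.1 CPM in naive and 12.8 and 9.16 CPM in primed libraries, and the groups overlapped (log2FC 0.18 ± 0.18).

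Of 10 genes outside these clusters, 2 rose, 4 fell and 4 did not pass the threshold. DIRAS3, a Ras-related growth suppressor of the paternal copy, stood at 1.21, 1.35, 1.21 and 1.51 CPM in AICAR 1, AICAR 2, CA-p38 and VPA, while primed EOS held 5 counts and primed CA-p38 EOS none (log2FC 4.64 ± 0.74, adjusted p = 0.000168, edgeR). The DIRAS3 value was 3.68 without primed CA-p38 EOS and 9.08 without primed EOS, where no primed count was left. INPP5F, a phosphoinositide phosphatase gene, rose 1.38-fold (log2FC 0.46 ± 0.13, adjusted p = 0.00931, edgeR), and its call was lost without primed EOS (0.26, edgeR adjusted p = 0.167).

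IGF2R (chr6:159969082-160113507, plus strand), the receptor that clears IGF2, stood at 38.3, 53.2, 45.5 and 42.2 CPM in AICAR 1, AICAR 2, CA-p38 and VPA against 171 and 216 CPM, so that the ligand gene rose and this receptor gene fell (log2FC -2.11 ± 0.14, adjusted p = 4.21e-08, edgeR). GNAS, which encodes the stimulatory G protein subunit and imprinted isoforms that counting by gene does not separate, fell from 796 and 756 CPM to 444 to 495 CPM (log2FC -0.75 ± 0.09). ZDBF2 fell from 63.3 and 50.6 CPM to 27 to 36.3 CPM (log2FC -0.85 ± 0.14). FAM50B was at 0.166 to 0.859 CPM in naive and 1.74 and 1.72 CPM in primed libraries (log2FC -1.97 ± 0.54, adjusted p = 0.00833, edgeR). NAP1L5, whose promoter is shown above, was at 0.920, 2.52, 0.890 and 1.32 CPM in AICAR 1, AICAR 2, CA-p38 and VPA and at 2.73 and 2.13 CPM in primed libraries, and was not called (log2FC -0.78 ± 0.42, adjusted p = 0.135, edgeR). Without AICAR 2 it was called (-1.21, edgeR adjusted p = 0.0142). TRAPPC9 (-0.41 ± 0.18), the zinc finger genes ZNF331 (-0.35 ± 0.15) and ZNF597 (0.13 ± 0.25) were not called either, and ZNF331 was called without VPA (-0.48, edgeR adjusted p = 0.00925).

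**Figure D3:**
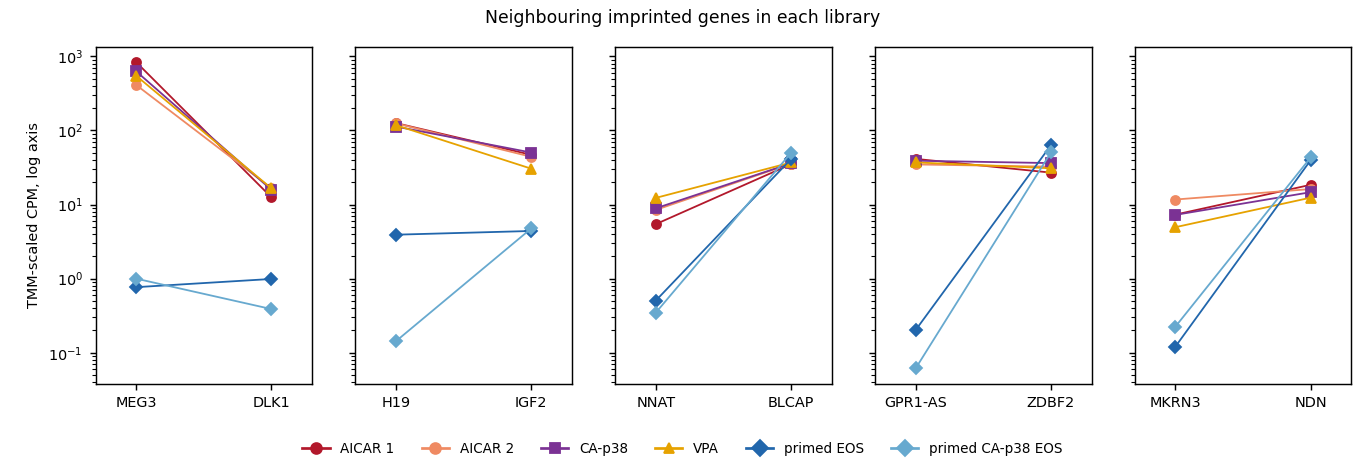
Levels of neighbouring imprinted genes in the 6 libraries, TMM-scaled CPM on a log axis, with 1 line per library joining the members of a pair. MEG3, H19, NNAT, GPR1-AS and MKRN3 are higher in every naive than in every primed library, while DLK1 and IGF2 rise with their neighbours and BLCAP, ZDBF2 and NDN are lower.

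Each induced library was then set against its own parental line, 1 library against 1 and therefore without a test. With a prior count of 0.5 added, 15 imprinted genes in AICAR 1 were at least 2-fold higher and 14 at least 2-fold lower than in primed EOS, beside 23.4% and 21.4% of the 26497 genes. In AICAR 2 these numbers were 15 and 13, beside 25.7% and 22.2%. CA-p38 over primed CA-p38 EOS gave 15 and 13, beside 25.1% and 20.6%, and VPA over primed EOS gave 15 and 14, beside 25.1% and 21.3%. AICAR 1, AICAR 2 and VPA share primed EOS as their reference. MEG3 was 1090-fold, 537-fold and 715-fold above primed EOS in AICAR 1, AICAR 2 and VPA, and 629-fold above primed CA-p38 EOS in CA-p38 (95% interval 476 to 851, Clopper-Pearson, counting error only). H19 was 32.3-fold, 32-fold and 30.2-fold higher in AICAR 1, AICAR 2 and VPA but 793-fold (385 to 1970) in CA-p38, whose parental library held 7 H19 counts. MKRN3 was 60.4-fold, 96.1-fold and 40.8-fold higher in AICAR 1, AICAR 2 and VPA and 32.3-fold (17.8 to 65.3) in CA-p38. SNRPN was lower by nearly the same factor in each, with the parental line 3.72, 3.54, 3.08 and 3.68 times as high as AICAR 1, AICAR 2, VPA and CA-p38.

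**Figure D4:**
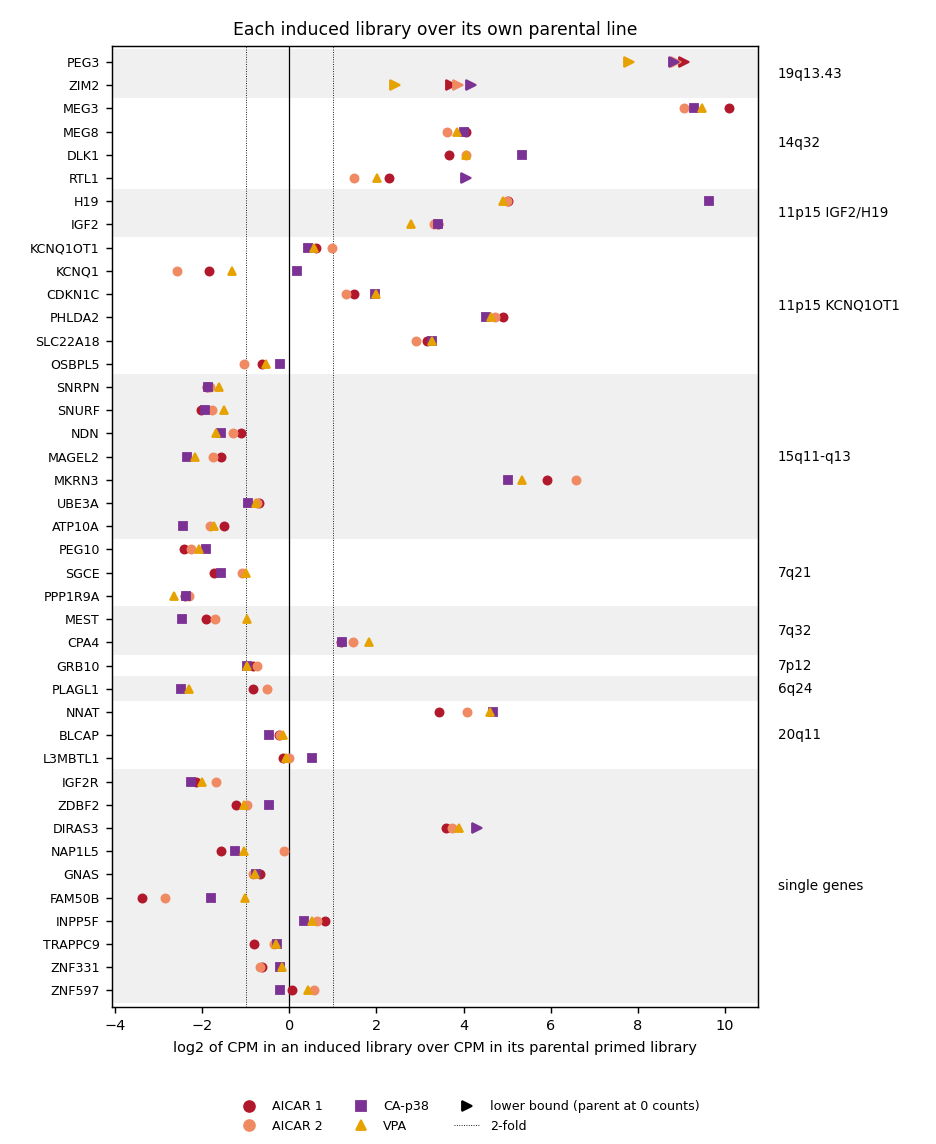
Log2 ratio of the CPM in each induced library to the CPM in its own parental primed library for the 41 tested imprinted genes, with dotted lines at a 2-fold difference and triangles for lower bounds where the parent had no count. The symbols of the 4 libraries lie on the same side of 0 for all genes except KCNQ1, L3MBTL1 and ZNF597. CA-p38 stands to the right of the others for several genes, among them H19, DLK1 and, as a lower bound, RTL1.

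Among the naive libraries themselves, imprinted genes varied by a median of 1.44-fold between the highest and the lowest library, compared with 1.35-fold for all genes with a naive mean of at least 1 CPM. None of the 35 imprinted genes at that level was 4-fold apart, beside 1.01% of 17711 genes, and 7 of 35 were at least 2-fold apart, beside 12.2%. These 7 were NAP1L5 (2.81-fold, AICAR 2 highest), PEG3 (2.42, AICAR 1), MKRN3 (2.35, AICAR 2), NNAT (2.26, VPA), MEST (2.04, VPA), MEG3 (2.03, AICAR 1) and ATP10A (2.01, AICAR 1). Highest and lowest libraries were not the same from gene to gene, and for NAP1L5 and MEG3 the AICAR libraries lay on different sides. UBE3A and BLCAP were the most even, at 1.05-fold and 1.06-fold. FAM50B, below 1 CPM, ranged 4.96-fold from AICAR 1 to VPA.

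With the same prior count, the primed libraries differed by at least 2-fold for 4 of the 41 genes, beside 14.9% of all genes, and in all 4 primed EOS was higher. Without it CPA4, at 4 and 8 counts in primed EOS and primed CA-p38 EOS, was 2.02-fold higher in the latter. H19 had 194 counts in the EOS parent and 7 in the CA-p38 EOS parent, a ratio of 27.4 (95% interval 13 to 69.0, Clopper-Pearson). DLK1 had 49 and 19 counts (2.55, interval 1.47 to 4.58). RTL1 had 11 and 0 counts and DIRAS3 5 and 0. IGF2 next to H19 had 218 and 233 counts and MEG3 next to DLK1 38 and 49, so that these neighbours did not share the difference. DLK1 and RTL1, paternally expressed genes of the same 14q32 cluster, were both higher in primed EOS. Among marker lists, the 8 endoderm markers summed to 13.6 CPM in the EOS parent and 51.5 CPM in the CA-p38 EOS parent (17.5 to 18.9 CPM in naive libraries), with FOXA2 at 5.35 and 21.4 CPM, and their part in these differences was not tested.

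Other genes reported as imprinted in human tissues were read in the same fit. Of 55 listed, 51 were in the table and 46 were tested, of which 13 rose, 18 fell and 15 were not called (67.4% called, median log2FC -0.14). The shares were 28.3% higher and 39.1% lower, beside 26% and 27% of all genes tested. GPR1-AS, a paternal antisense transcript at the ZDBF2 locus, was at 34.8 to 41.4 CPM in naive libraries and 0.202 and 0.0613 CPM in primed ones, a 289-fold difference (log2FC 8.15 ± 0.30, adjusted p = 3.02e-10, edgeR), while ZDBF2 itself fell. MEG9 of the 14q32 cluster was 88.0-fold higher (13.7 to 31.2 CPM against 0.263 and 0.184), and NLRP2, an inflammasome-related gene with a maternal role in imprinting, was 21.5-fold higher (1280 to 1340 CPM against 71.6 and 50.4). Falling genes with at least 4-fold change and 5 CPM included GABRA5 (9.70-fold higher in primed cells), a GABA receptor subunit gene, RB1 (6.39-fold), the retinoblastoma cell cycle gene, PHACTR2 (5.86-fold) and GNAS-AS1 (4.43-fold), the antisense transcript at GNAS.

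Factors that write, erase or protect DNA methylation were read in the same fit. Of 12 listed, 5 rose, 4 fell and TRIM28, ZNF445 and UHRF1 were not called, beside 53.1% of all genes called. ZFP57 stood at 68.9, 72.8, 88.2 and 83.3 CPM in AICAR 1, AICAR 2, CA-p38 and VPA against 0.343 and 0.368 CPM in primed libraries (220-fold, log2FC 7.77 ± 0.22, adjusted p = 3.5e-11, edgeR). DPPA3, which protects maternal methylation in the zygote, was 672-fold higher, and DNMT3L, the germline cofactor of de novo methylation, was 2020-fold higher. TET1 and TET2 rose and TET3 fell. The maintenance methyltransferase DNMT1 was at 84.8 to 105 CPM in naive and 293 and 324 CPM in primed libraries (log2FC -1.70 ± 0.10), DNMT3B fell with a log2FC of -1.95 ± 0.11, and DNMT3A fell with -0.34 ± 0.12 (edgeR adjusted p = 0.0276). ZNF445, which acts beside ZFP57 at imprinted regions, was at 35.2 to 38 CPM in naive and 41.7 and 41.9 CPM in primed libraries (log2FC -0.17 ± 0.11).

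Markers of other cells were read in the same libraries. The 8 fibroblast markers summed to 39.3 to 81.1 CPM in naive and 176 to 192 CPM in primed libraries, with COL1A1, COL1A2 and POSTN lower and TWIST2 higher in naive cells, although only naive cells had been on feeders. Reads of mouse feeder cells were not separated here, and the part of TWIST2-expressing cells in any difference was not tested. The neural list summed to 158 to 198 CPM in naive and 128 to 146 CPM in primed libraries, nearly all of it TUBB3, which was called higher. MAP2 of that list, at 0.0805 CPM or less in naive libraries and 5.92 and 6.05 CPM in primed ones, was called lower. DCX, at 0.0955 to 0.662 CPM in naive and 7.21 and 7.38 CPM in primed libraries, was also called lower. The mesoderm and muscle list summed to 10.8 to 16.0 CPM in naive and 12.8 to 16.2 CPM in primed libraries.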

How the data were processed

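Polyadenylated RNA of 4 naive and 2 primed libraries was sequenced (SMART-Seq Stranded kit). Adapters were trimmed by the authors (cutadapt 1.15 through Trim Galore 0.4.4), who aligned reads with Bowtie2 to Ensembl transcripts of GRCh38, coding and noncoding, and deposited raw counts per Ensembl identifier, with replicates not pooled. Use of strand in counting was not given in the sources used here. The table held 61222 features, of which 26 spike-ins were left out, and 23 columns of other studies were not used. Members and lists were chosen with earlier results of these data known, and all listed members are named. Of other imprinted genes, those called with at least 4-fold change and a group mean of 5 CPM were named, except 1 that is not reported here.

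Counts were summed by name and fitted with edgeR 4.0.16 in R 4.3.3 (TMM, filterByExpr, glmQLFTest, Benjamini-Hochberg over 26497 genes, threshold 0.05, no covariates), since the smallest p that an exact permutation of 4 and 2 libraries allows is 0.0667. Genes with at most 3 counts in each library of a group are given as bounds against 3 counts, the floor of the primed library with the highest value. Ratios between single libraries hold no prior count and have Clopper-Pearson intervals, which cover counting error only, whereas counts of 2-fold genes, the naive spread and log2 ratios used a prior count of 0.5. Positions came from GENCODE and starts from RefSeq. Alternatives were library totals, median-ratio factors, DESeq2 1.42.0, limma-voom 3.58.1, looser and stricter count filters, the parental line as a block, AICAR libraries summed, 1 identifier per gene, each library left out in turn, and, for ratios, averaging the parental lines or raising the prior count to 2. A 2-fold limit on the naive spread was added after seeing the data. The scripts were tested on simulated data.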

Additional observations from a re-analysis of the deposited data

Results flagged for a closer look

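TRAPPC9, a vesicle-trafficking gene imprinted by tissue, stood at 9.75 CPM in AICAR 1 and at 13.5 to 14 CPM in the other naive libraries. That gap was 0.905 of the range of the 4 naive libraries on the log2 scale, above Dixon's critical value for 4 samples. It was the only such library among the 41 tested imprinted genes, and chance flags about 1 in 20 groups.

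For 3 genes the log2 ratios to the parent had opposite signs in the EOS line and in the CA-p38 EOS line. These differences were not tested. KCNQ1 had a log2 ratio of 0.18 in CA-p38 and of -2.55 to -1.31 in AICAR 1, AICAR 2 and VPA. L3MBTL1 had 0.52 in CA-p38 and -0.14 to -0.0 in the EOS line, and ZNF597 had -0.21 in CA-p38 and 0.06 to 0.58 in the EOS line. None of the 4 genes was called between naive and primed libraries.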

How the results depend on the processing

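The imprinted genes were refitted under 15 alternatives, which gave 607 values for single genes: 578 kept their direction and side of the threshold, 18 lost their call, 9 gained one and 2 changed sign. The sign changes were in genes near 0, L3MBTL1 (-0.04 to 0.42 with 1 library left out, lowest without primed CA-p38 EOS) and ZNF597 (-0.05 to 0.32, lowest without primed EOS). Calls were lost for KCNQ1OT1, INPP5F, OSBPL5, PLAGL1 and BLCAP and gained for KCNQ1, NAP1L5, ZNF331 and TRAPPC9. With at least 10 counts required in every library, which leaves 33 imprinted genes, 10 were higher, and 6 of the other imprinted genes were. A 2-fold limit in place of 4-fold gave 7 genes that varied among naive libraries. Library totals moved the median log2FC of all genes from 0.107 to 0.205 and left 15 imprinted genes lower. The labels give no replicate numbers that pair naive with primed libraries. With the parental line, EOS or CA-p38 EOS, as a block, 16 were higher and 16 lower. With 2 primed libraries, genes under about 1 CPM are the least certain.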

Other observations

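Ratios of neighbouring imprinted genes within a library, which do not depend on scaling, are given here without a test. SNHG14, whose counted feature begins at the 3′ end of SNRPN, had 1.51 to 2.45 counts per count of SNRPN in naive libraries and 1.23 and 1.51 in primed EOS and primed CA-p38 EOS, so the ranges met. PEG10 had 5.27 to 9.33 counts per count of SGCE in naive libraries and 11.8 in both primed ones. CDKN1C had 0.425 to 0.917 counts per count of KCNQ1OT1 in naive libraries and 0.340 and 0.201 in primed EOS and primed CA-p38 EOS, whereas MEG8 had 48.3 to 62.2 counts per count of RTL1 in naive libraries and 14.4 in primed EOS, and primed CA-p38 EOS gave no ratio, with 149 MEG8 and 0 RTL1 counts. PEG10 and SGCE, and MEG8 and RTL1, overlap on opposite strands.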
